A study of Mus musculus with 10 samples.

Results

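Genes of the cell division programme were followed in whole cochlear RNA from 9-month-old male mice. The set had been named as 30 genes of DNA replication and mitosis, described as active in marrow progenitors. Each gene was read from its brightest probe set, by mean log2 signal over all arrays. A named probe set was found for 29 of the 30 genes, out of 18193 genes with a probe set in all; the cyclin gene Ccnb1 had none under its name and was not analysed here. In 21 of the 29 genes that probe set was bright, meaning among the 22518 of 45037 probe sets with the highest mean log2 signal, to which the main test was confined; 11871 genes were bright in all. The other 8 (Tyms, Tk1, Plk1, Aurkb, Bub1, Bub1b, Kif11 and Kif20a) were dim, and their values were taken from a fit with no filter on signal. The edge of the bright probe sets was 577, a mean log2 signal converted back to the signal scale. Read in the same way, Aurka lay just above it at 626 and Kif11 just below at 576.

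The study compared 5 wild-type samples (Polg+/+) with 5 samples homozygous for the D257A form of Polg (PolgD257A/D257A), 1 Affymetrix array each. Polg is the gene for the polymerase that copies mitochondrial DNA; the D257A form lacks proofreading, so that mutations build up with age. The allele is a germline change present in all tissues. Total RNA was taken from cochlear tissue as a whole, and the labels state no sorting of cells. In such bulk RNA, fewer cells of a type and less RNA per cell cannot be told apart. The labels number the samples 1 to 5 in each group and the design text states that no replicates were done, so n counts arrays and p-values measure the spread between these samples, which may in part be technical.

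Cell division genes work in waves. In late G1 the MCM helicase is loaded on replication origins, and E2F factors switch on the genes of DNA synthesis and nucleotide supply. Later the B-type cyclins with Cdk1, the Polo and Aurora kinases and the anaphase-promoting complex drive mitosis, and many of these late genes are switched through CCAAT boxes and the element called CHR. Adult cochlear sensory cells do not divide, whereas blood precursors in the marrow of the surrounding temporal bone, and basal cells of nearby epithelia, do.

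The promoter windows of 4 genes are shown because these tested genes had the smallest unadjusted p among the 21, a choice made after their values were seen. Each window runs from 250 bases before to 50 bases after a RefSeq transcript start (GRCm38.p6), and is written 5′ to 3′ in the direction of the gene. Capitals mark matches, on either strand, to an E2F-type motif (TTTNNCGC), to the CHR (TTTGAA) and to the CCAAT box (CCAAT, which reads ATTGG on the other strand).
Rrm2, chr12:24708004-24708303, plus strand: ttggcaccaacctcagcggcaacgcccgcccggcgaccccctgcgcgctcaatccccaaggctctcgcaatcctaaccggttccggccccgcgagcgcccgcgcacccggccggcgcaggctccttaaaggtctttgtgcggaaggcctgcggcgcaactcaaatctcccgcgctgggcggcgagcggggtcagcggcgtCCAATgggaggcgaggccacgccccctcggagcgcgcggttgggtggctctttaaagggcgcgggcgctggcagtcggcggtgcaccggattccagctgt
Mcm6, chr1:128359656-128359955, minus strand: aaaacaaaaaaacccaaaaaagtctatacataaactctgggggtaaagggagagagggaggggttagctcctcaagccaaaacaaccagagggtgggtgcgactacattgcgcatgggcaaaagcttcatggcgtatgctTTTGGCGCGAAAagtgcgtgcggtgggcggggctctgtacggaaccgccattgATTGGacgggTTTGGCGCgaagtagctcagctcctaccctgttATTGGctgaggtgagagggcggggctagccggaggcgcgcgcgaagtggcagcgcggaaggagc
Mki67, chr7:135716330-135716629, minus strand: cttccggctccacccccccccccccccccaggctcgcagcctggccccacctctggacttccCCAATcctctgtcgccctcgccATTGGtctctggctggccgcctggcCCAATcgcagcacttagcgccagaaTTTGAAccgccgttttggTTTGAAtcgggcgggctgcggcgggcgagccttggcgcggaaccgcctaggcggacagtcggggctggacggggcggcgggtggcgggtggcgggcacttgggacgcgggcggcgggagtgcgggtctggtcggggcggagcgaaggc
Cenpa, chr5:30666636-30666935, plus strand: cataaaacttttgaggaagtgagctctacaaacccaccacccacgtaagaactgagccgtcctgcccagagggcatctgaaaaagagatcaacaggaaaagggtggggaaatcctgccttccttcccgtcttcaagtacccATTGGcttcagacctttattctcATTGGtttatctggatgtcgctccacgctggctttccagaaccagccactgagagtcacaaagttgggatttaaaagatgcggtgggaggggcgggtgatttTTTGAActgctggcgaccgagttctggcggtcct
The Mcm6 window held 3 matches to the E2F-type motif, of which a pair on opposite strands overlapped, while those of Mki67 and Cenpa held the CHR and those of all 4 held a CCAAT box. Over all members, 26 of the 30 genes had windows in the RefSeq table, 28 windows in all. CCAAT was found in 24 of the 28 windows (85.7%) against 37.4% of all 32851 windows of this length. The CHR letters were found in 14 of the 28, against 17.9% of all windows, and the E2F-type letters in 6 (21.4%, against 5.17%). A match describes the letters of these windows and is no measure of binding.

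A pair of arrays stood apart. Wild-type replicate 3 and D257A replicate 2 had the highest scores on the first principal component (45.6 and 96.9, against -49.9 to 21 on the others). On these arrays the probe sets of a single gene also disagreed most. For the 10 members with several bright probe sets, the SD among the probe sets of a gene, in centred log2 signal, averaged 0.43 on wild-type replicate 3 and 0.51 on D257A replicate 2, against 0.19 to 0.369 on the other 8 arrays. Over 4872 genes with several such probe sets the same quantity was 0.431 and 0.521 on these arrays and 0.239 to 0.315 on the others.

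Mcm7, a subunit of the MCM helicase, shows what this disagreement looks like. Its brightest probe set (1438320_s_at) hardly differed between arrays, from 5861.8 to 7097.1 in wild-type and from 6033.5 to 7097.7 in D257A. A second probe set (1416030_a_at) measured 666.4 on wild-type replicate 3 and 613.7 on D257A replicate 2, and between 1266.8 and 2141 on the other 8 arrays. Another (1439269_x_at) measured 1300.7 and 1360.4 on those arrays, within the range of the others (513 to 1581.2). The reading of Mcm7 on these arrays therefore depended on the probe set.

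**Figure D1:**
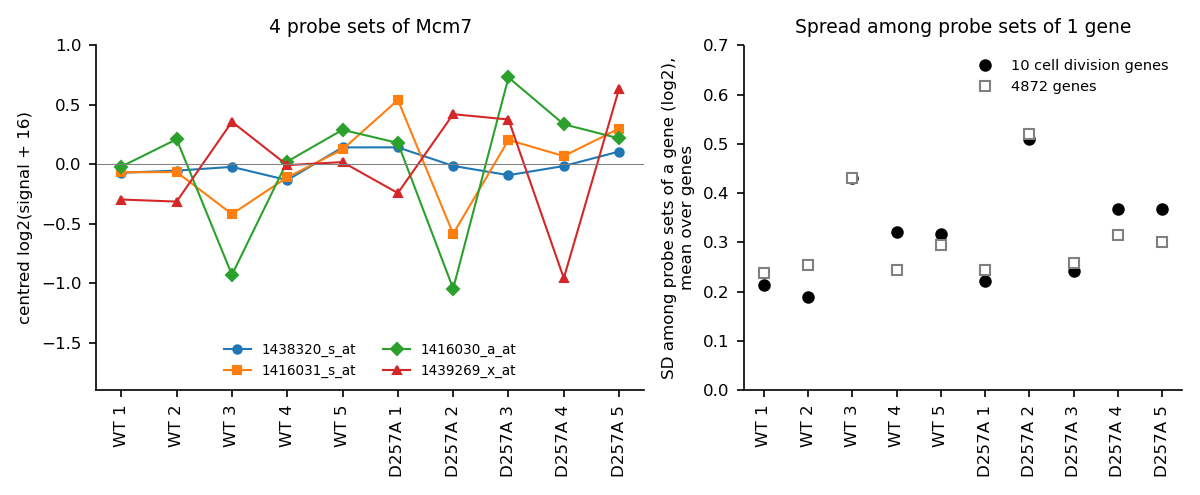
Left, centred log2(signal + 16) of the 4 probe sets of Mcm7 on each array, 1 line per probe set. Right, the SD among the probe sets of 1 gene on each array, averaged over 10 cell division genes (filled) and over 4872 genes (open); wild-type replicate 3 and D257A replicate 2 are highest in both.

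No cell division gene passed the test between D257A and wild-type cochleae, and the members did not lean to 1 side. Of the 21 tested genes, limma called 0 at a Benjamini-Hochberg adjusted p under 0.05, against 2.32% of the 11871 bright genes (275 genes: 0.657% higher and 1.66% lower in D257A). An unadjusted p under 0.05 was reached by 3 of the 21 (Rrm2, Cenpa and Mcm6), against 16.7% of all genes. The log2 difference, D257A minus wild-type on the log2(signal + 16) scale, was positive for 10 and negative for 11, with a median of -0.07 beside -0.02 over all genes tested. These signs are those of the brightest probe sets. Of 20 members with several probe sets, 11 had differences of both signs among them, and 4 of 10 did so among bright probe sets only. The 5 D257A values all lay above the 5 wild-type values for 1 of the 21 genes, Cenpa, against 1.77% of bright genes, and all below for 0, against 3.52%. With the 8 dim genes added, they lay all above for 2 of 29 (Kif20a besides), against 2.06% of all 18193 genes, and all below for 0, against 2.8%. With no filter limma called 0 of the 29, against 1.5% of all genes, and 5 had an unadjusted p under 0.05 (Mki67 and Kif20a besides). The share of all genes at that unadjusted p is not given here for this fit, so the 5 cannot be set against it. The 95% limma interval of the difference lay between -1 and 1, so within a 2-fold change either way, for 16 of the 21 genes; the exceptions were Mcm2, Mcm6, Rrm1, Rrm2 and Mki67. These intervals are per gene and not adjusted for the number of genes. Without wild-type replicate 3 and D257A replicate 2, limma again called 0 of the 21, with an unadjusted p under 0.05 for Mcm2, Rrm2 and Cenpa. Here too the share of all genes at that unadjusted p is not given. Simulated arrays had 22518 probe sets with the means and pooled SDs of these data and independent normal noise. Changes of 0.5, 1 and 2 log2 units were set in 67, 67 and 66 probe sets. Of changes of 2 units 86.4% were called, of 1 unit 31.3% and of 0.5 unit 0%. A wider spread in D257A and arrays that stand apart were not simulated, so these shares may differ from those in the data.

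**Figure D2:**
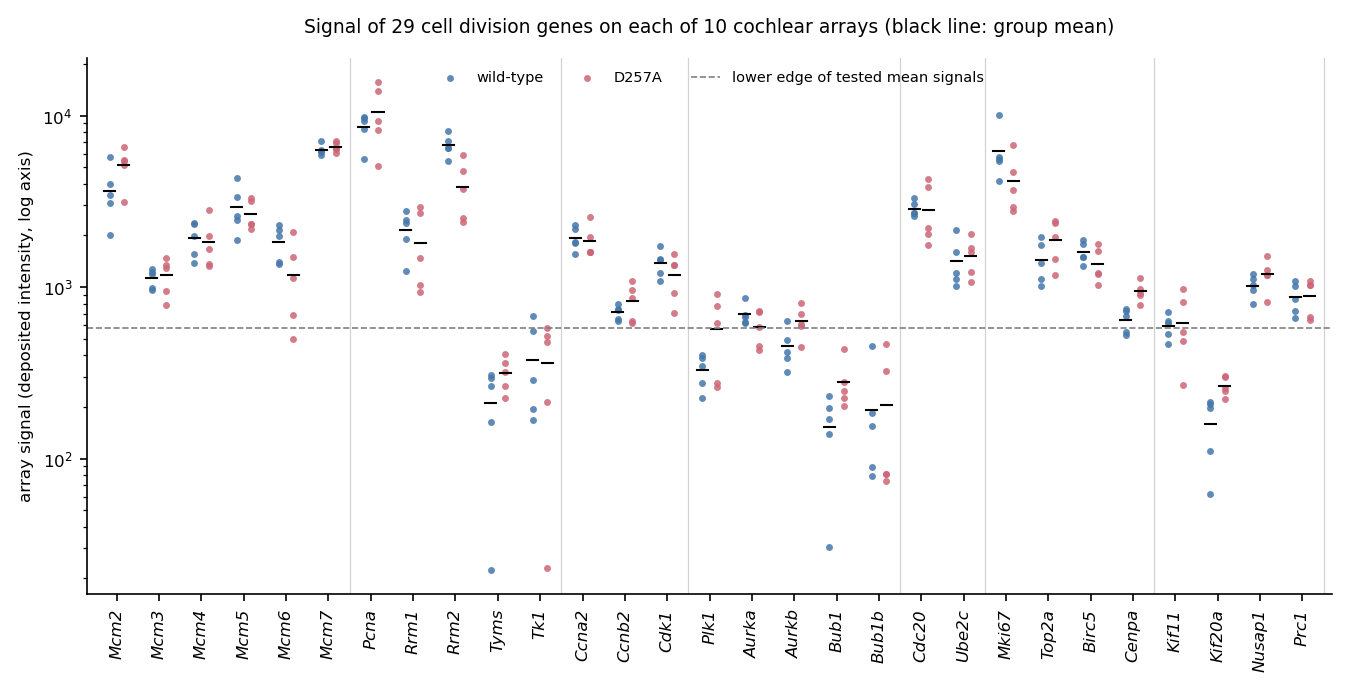
Array signal (deposited intensity, log axis) of the 29 measured cell division genes, grouped by role, with 1 point per array, 5 wild-type (blue) and 5 D257A (red), and a black line at each group mean. The groups overlap for all genes but Cenpa and Kif20a. The dashed line marks 577, the lower edge of tested mean log2 signals, converted back. The black lines are arithmetic means, so those of the dim Kif11 (592.7 and 619.2) lie above it.

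**Figure D3:**
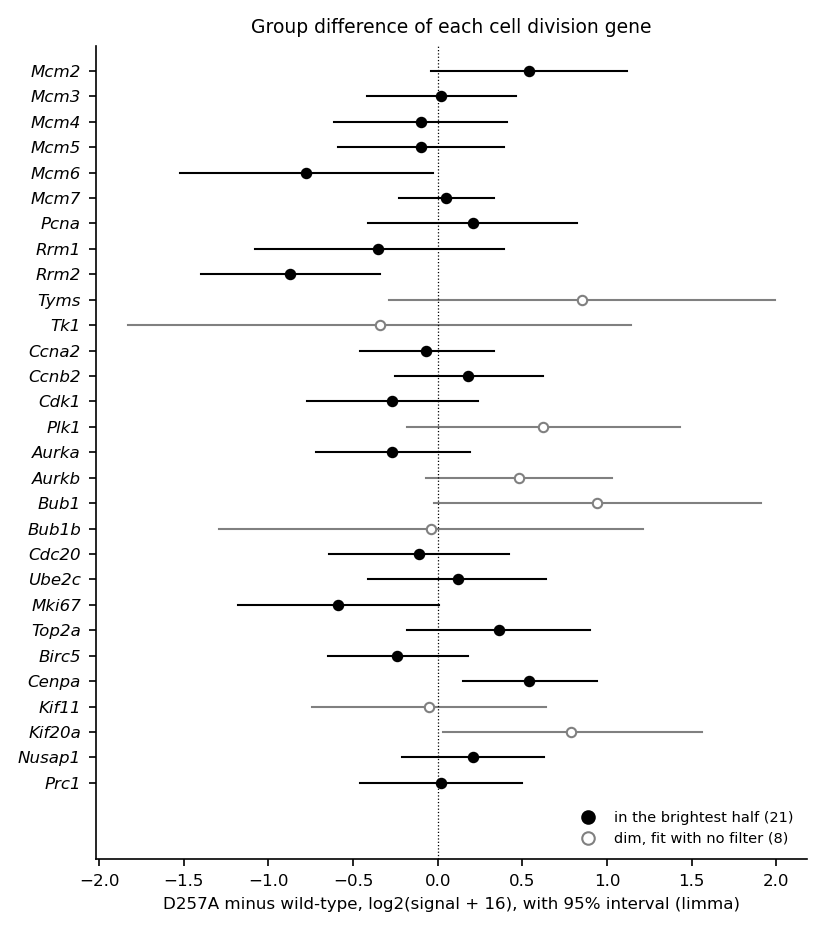
Difference between the group means of each gene, D257A minus wild-type, in log2(signal + 16), with the 95% limma interval. Filled points are the 21 bright genes and open points the 8 dim genes. The intervals of Mcm6, Rrm2, Cenpa and Kif20a leave out 0; after adjustment over all probe sets no gene passed.

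The MCM genes encode the subunits of the replicative helicase, which is loaded on DNA before S phase. The highest log2 difference among them was that of Mcm2, with signals of 3985, 3435.6, 5734.8, 2014.5 and 3076.3 on wild-type replicates 1 to 5 and 5508, 6527.3, 5456, 3152.2 and 5117.8 on D257A replicates 1 to 5. The groups overlapped, since wild-type replicate 3 lay above all D257A arrays but replicate 2 and D257A replicate 4 lay within the wild-type range. The Mcm2 means were 3649 ± 1370 and 5152 ± 1236 (SD, n = 5 each), a log2 difference of 0.54 (SE 0.27, limma adjusted p = 0.335). A second Mcm2 probe set gave 0.13.

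Mcm6 had the lowest value of the family. It measured 1987.6, 2148.7, 1396.1, 1355.7 and 2295.7 on the wild-type arrays and 2083.5, 684.3, 1504.1, 1129.5 and 498.8 on the D257A arrays, so that D257A replicates 2, 4 and 5 lay below all wild-type arrays and replicates 1 and 3 among them. The log2 difference was -0.78 (SE 0.34, limma adjusted p = 0.273). A second bright Mcm6 probe set gave -0.02 and a dim one 0.44. On their brightest probe sets the other MCM genes lay close to no difference: Mcm3 at 0.02, Mcm4 and Mcm5 at -0.10 and Mcm7 at 0.05, with adjusted p from 0.874 to 0.974. Further bright probe sets gave -0.14 for Mcm3, 0.25 for Mcm4 and 0.21, 0.17 and 0.10 for Mcm7. Dim ones gave -0.40, -0.50 and 0.06 for Mcm3 and -0.24 and 0.08 for Mcm5. For Mcm7 the 95% interval ran from -0.23 to 0.33.

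Rrm2, the radical-bearing subunit of ribonucleotide reductase, which makes the deoxynucleotides for DNA synthesis, came nearest to the threshold. Its signals were 5400.2, 8153.6, 7059.7, 6424.6 and 6507.7 in wild-type and 5857.5, 4738.5, 3741.4, 2519.4 and 2397.7 in D257A (probe set 1434437_x_at). Only D257A replicate 1 reached the wild-type range; the other 4 lay below it. The means were 6709 ± 1006 and 3851 ± 1476 (SD, n = 5 each), a log2 difference of -0.87 (95% interval -1.40 to -0.34, limma adjusted p = 0.0869). Without D257A replicate 1 the difference was -1.04 and passed (adjusted p = 0.0467), and it passed with array weights (0.0386). With the mean over the 3 Rrm2 probe sets it was -0.46 (adjusted p = 0.393), the other probe sets giving -0.35 and -0.15. The brightest one is of the x type, which on this platform can also match other transcripts, as can those of Mcm5, Aurkb and Cdc20. Those of Mcm2, Mcm3, Mcm7 and Prc1 are of the s type, which can likewise match several transcripts.

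The remaining genes of DNA synthesis were spread widely. Rrm1, the large subunit of the same enzyme, measured between 1239.3 and 2765.8 in wild-type and between 935.1 and 2946.3 in D257A, with a log2 difference of -0.35 (adjusted p = 0.65). Pcna, the sliding clamp of the replicative polymerases, ranged from 5581.3 to 9781.8 and from 5067 to 15597.9, with D257A replicates 1 and 4 above all wild-type arrays and D257A replicate 2 below them (log2 difference 0.21, adjusted p = 0.764). Both salvage and synthesis of thymidylate were represented by dim genes only. The thymidylate synthase gene Tyms, the highest of this group by its difference, measured 263.4, 296.9, 22.4, 163.2 and 306.7 in wild-type and 362.9, 409.2, 265.9, 225.2 and 318.3 in D257A. The 22.4 stood on wild-type replicate 3, and without that array the log2 difference of 0.85 became 0.29. Further Tyms probe sets, dimmer still, gave 0.51, 0.85 and 0.79 over all arrays (limma adjusted p = 0.656, 0.348 and 0.634 with no filter). The thymidine kinase gene Tk1 ranged from 168.2 to 677.6 and from 22.9 to 573.5, the lowest value being that of D257A replicate 2 (log2 difference -0.34, adjusted p = 0.853, no filter on signal).

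No cyclin gene was called, nor was their kinase. Ccnb2, a B-type cyclin of mitosis, measured 800.5, 745.2, 651.6, 630 and 732.8 in wild-type and 1078.8, 630, 957.8, 857.5 and 616.2 in D257A. D257A replicates 1, 3 and 4 lay above the wild-type range and replicate 5 below it (log2 difference 0.18, SE 0.20, limma adjusted p = 0.696). Cdk1, the mitotic cyclin-dependent kinase, measured 1087, 1740.7, 1204.1, 1437.9 and 1452.3 in wild-type and 1558.9, 1348.7, 1352.3, 928 and 701.1 in D257A. Here D257A replicates 4 and 5 lay below all wild-type arrays and the other D257A arrays among them (-0.27, SE 0.23, adjusted p = 0.602). The S-phase and G2 cyclin gene Ccna2 was at -0.07 (adjusted p = 0.896), and its second probe set was at 0.24.

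Among the mitotic kinases only Aurka, the kinase of spindle poles, was bright enough for the test. It measured 689.8, 862.3, 626.2, 617.4 and 670.7 in wild-type and 711.1, 583.5, 729.5, 431.6 and 453.4 in D257A, with D257A replicates 2, 4 and 5 below the wild-type range. The difference was -0.27 (SE 0.21, limma adjusted p = 0.557). Bub1, a kinase of the spindle checkpoint, was dim and had the highest difference of the group: its signals were 30.6, 138.4, 231.3, 170.7 and 196.9 in wild-type and 436.5, 224.4, 201.3, 248.5 and 280.8 in D257A. D257A replicates 1, 4 and 5 lay above all wild-type arrays and replicates 2 and 3 within their range. The log2 difference of 0.94 (95% interval -0.02 to 1.91, adjusted p = 0.326 with no filter) became 0.53 without wild-type replicate 1, the array at 30.6. A second, still dimmer probe set gave 0.85 over all arrays. Plk1, the Polo kinase, was at 0.62, and Aurkb, the kinase of the chromosomal passenger complex, at 0.48, neither called (adjusted p = 0.445 and 0.381 with no filter). The checkpoint gene Bub1b was at -0.04.

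Cdc20 and Ube2c act with the anaphase-promoting complex, the ligase that ends mitosis, as its activator and its ubiquitin-conjugating enzyme. Cdc20 measured 2584.5, 3061.2, 3304.8, 2690.5 and 2706.8 in wild-type and 4287.9, 3809.6, 2032.8, 1762.2 and 2200.1 in D257A. All D257A arrays were outside the wild-type range on this probe set, replicates 1 and 2 above it and 3, 4 and 5 below it. The means of 2870 ± 302.5 and 2819 ± 1146 (SD, n = 5 each) were close while the spread was wider in D257A. The log2 difference was -0.11 (limma adjusted p = 0.862). A second bright Cdc20 probe set gave 0.08. Its D257A values (820.6 to 1160) lay inside the wild-type range (616.9 to 1234.6), with SDs of 136.3 in D257A and 249.3 in wild-type. The wider spread in D257A thus depends on the probe set. Ube2c measured 1211.9, 1595.4, 1018.3, 1112.3 and 2158.9 in wild-type and 1680.3, 1065.3, 1606.6, 2043.2 and 1223.5 in D257A, all D257A values within the wild-type range (0.12, adjusted p = 0.851).

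Cenpa, the histone H3 variant that marks centromeres, was the tested member whose groups did not overlap. Its brightest probe set (1450842_a_at) measured 550.1, 726.1, 674.8, 747.7 and 525.2 in wild-type and 1132.4, 969.2, 926.1, 788.8 and 898.7 in D257A. All 5 D257A arrays lay above all wild-type arrays. The means were 644.8 ± 101.7 and 943 ± 125.1 (SD, n = 5 each) and the log2 difference was 0.54 (95% interval 0.15 to 0.94, limma adjusted p = 0.148). A second, dim Cenpa probe set (1441864_x_at) went the other way, from 555.8 ± 124.5 to 340.3 ± 115.2 (log2 difference -0.72, adjusted p = 0.236 with no filter), and another dim one was at 0.72, so the direction for the gene depends on the probe set.

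Mki67, the proliferation marker that coats mitotic chromosomes, measured 5714.3, 10063.1, 5564.7, 5405.3 and 4162.4 in wild-type and 6726.7, 3661.7, 4673.6, 2792.6 and 2921.3 in D257A. D257A replicates 2, 4 and 5 were below the wild-type range, and replicate 1 was above all wild-type arrays but replicate 2. The log2 difference was -0.59 (95% interval -1.18 to 0.01, limma adjusted p = 0.305). Top2a, the topoisomerase that untangles sister chromosomes, was at 0.36 (adjusted p = 0.502; 0.13 on a second bright probe set) and Birc5, the survivin subunit of the chromosomal passenger complex, at -0.24 (adjusted p = 0.57).

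Kif20a, a kinesin of the central spindle, was the other gene without overlap. It was dim: 62, 111.4, 198.4, 213.8 and 208.2 in wild-type and 297, 301.1, 223, 258 and 246.1 in D257A. The lowest D257A array stood only slightly above the highest wild-type array, and all values lay below 577 (log2 difference 0.79, 95% interval 0.03 to 1.56, limma adjusted p = 0.298 with no filter). The motor gene Kif11, which pushes spindle poles apart, measured 716.1, 615.7, 533.4, 633.2 and 465.2 in wild-type and 979.4, 816.4, 547.5, 484.5 and 268.4 in D257A, the D257A arrays reaching beyond the wild-type range on both sides (-0.05, adjusted p = 0.959 with no filter). The spindle protein Nusap1 and the midzone bundler Prc1 were at 0.21 and 0.02 (adjusted p = 0.625 and 0.979).

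Several genes had the same arrays at their extremes. D257A replicate 1 held the highest signal of all 10 arrays for 9 of the 21 tested members and the lowest for 0. D257A replicate 5 held the lowest for 6 and D257A replicate 4 for 5. Relative to the wild-type range, D257A replicate 1 was above it for 11 members and below it for 0, whereas replicate 5 was above for 1 and below for 11 and replicate 4 above for 4 and below for 10. The same counts by array were not made over all bright genes. Whether cell division genes differ from other genes in this was therefore not tested. The mean of centred log2 signals over the 21 genes was 0.419, -0.065, 0.098, -0.265 and -0.363 on D257A replicates 1 to 5 and -0.028, 0.235, 0.046, -0.109 and 0.031 on wild-type replicates 1 to 5. The wild-type arrays thus lay inside the span of the D257A arrays. The SD over arrays was larger in D257A for 16 of the 21 members (76.2%), against 67.1% of all bright genes. Its median over the members was 0.38 in D257A and 0.26 in wild-type, beside 0.34 and 0.27 over all bright genes.

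The high level of D257A replicate 1 and the low level of D257A replicate 4 were also read by other probe sets of the same genes. Over 13 further bright probe sets of 10 members the mean was 0.429 on D257A replicate 1 and -0.342 on replicate 4. For D257A replicate 5 they gave 0.007, near the mean of all arrays, and for D257A replicates 2 and 3 they gave -0.375 and 0.362. Members of DNA replication and of mitosis shared the extremes: both parts were highest on D257A replicate 1 (0.424 and 0.415) and lowest on D257A replicate 5 (-0.438 and -0.307).

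Markers of blood cells were set beside these values because of the description as marrow genes. In bulk cochlear RNA such a marker can also be read from other cells, and its source was not tested. Of 9 measured blood progenitor markers, such as Kit and Cd34, 8 were bright and 0 were called. The log2 differences of those 8 ran from -0.28 to 0.31, and the dim Hoxa9 was at 0.58. Of 12 B cell precursor markers 10 were dim, among them Vpreb1, Igll1 and Rag1. Over the 12, 4 differences were positive and 8 negative, with a median of -0.38. The dim Vpreb3 was at -1.21 and Cd79a at -0.69 (limma adjusted p = 0.134 and 0.199 with no filter). Of 15 erythroid precursor markers 13 were bright and 0 called. Over the 15, summed signals were 61250 to 73740 in wild-type and 47270 to 72680 in D257A. Ank1 was at 0.53 and Slc4a1 at -0.50 (limma adjusted p = 0.0949 and 0.225). Of the 13 bright markers 4 had a positive and 9 a negative difference, with a median of -0.18. Their mean centred level was 0.236, -0.167, 0.279, -0.283 and -0.345 on D257A replicates 1 to 5. Replicates 1 and 3 stood above 0 and the others below, and replicate 5 was lowest, as for the cell division genes on their brightest probe sets. The granulocyte precursor markers had another pattern. All 7 were bright, 6 had a positive difference and 2 were called higher: Mpo, myeloperoxidase (log2 difference 1.12, adjusted p = 0.0309), and Ctsg, cathepsin G (1.31, adjusted p = 0.0337). Their summed signals were 8736 to 11730 in wild-type and 13750 to 31150 in D257A, and their mean level was highest on D257A replicate 5 (0.907), and 0.281 on replicate 1. Replicate 5 had the lowest level of cell division genes on their brightest probe sets, but not on their other bright probe sets, where replicates 2 and 4 were lowest. Late neutrophil markers (9 of 10 positive, Ltf called lower) measured 0.507, 0.78, 0.183, -0.58 and 0.618 on D257A replicates 1 to 5. Among 2 bright B cell precursor markers 0 were called. None of these markers was at 0 on any array, which is no measure of detection. The lowest signal among the B cell precursor markers was 17.

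**Figure D4:**
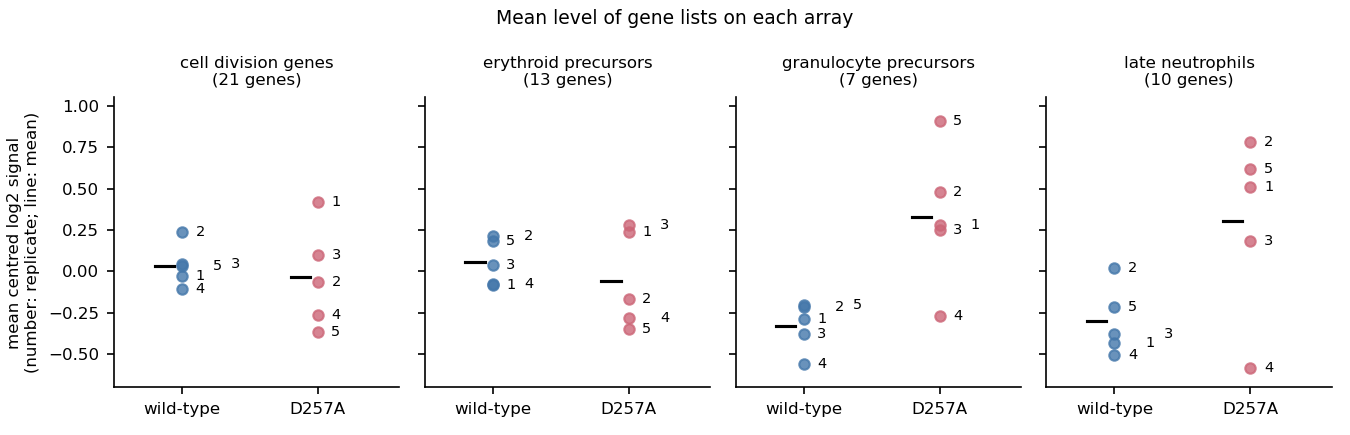
Mean centred log2 signal of 4 gene lists on each array, 1 point per array labelled with its replicate number, and a line at the group mean. Cell division genes are read from their brightest probe sets. D257A replicate 5 is lowest for them (-0.363; 0.007 on their other bright probe sets) and for erythroid precursor markers (-0.345) and highest for granulocyte precursor markers (0.907).

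Thus 2 granulocyte precursor markers were called higher in D257A while no cell division gene was called; the difference between the lists was not tested. The values do not show which cells the division genes were read from. Of other blood cells, 6 of 8 megakaryocyte markers, 8 of 8 macrophage markers and 1 of 6 T cell markers were bright, and 0 of each were called, as were 0 of 7 bone cell markers. The 6 bright megakaryocyte markers all had a positive difference, with a median of 0.35, and their mean level was 0.048 to 0.395 on the D257A arrays against -0.407 to -0.105 on the wild-type arrays. Among them the platelet receptor gene Gp1bb did not overlap between groups (log2 difference 0.61, limma adjusted p = 0.0709). Of the macrophage markers 7 were positive and 1 negative, with a median of 0.21. Of 7 markers of basal epithelium 3 were bright, and the keratin genes Krt5 and Krt14 were called lower in D257A, whereas Itgb4 was not called (log2 difference -0.45, limma adjusted p = 0.513). For 5 of the 7 all D257A values lay below all wild-type values, against 2.8% of all genes. The summed signals were 8648 to 24380 in wild-type and 2238 to 4914 in D257A, and the lowest single signal was 16.2. Of 8 skeletal muscle markers 5 were called lower. The creatine kinase gene Ckm was not called, and D257A replicate 5 held its highest signal of the 10 arrays (58214.5). The mean level of the muscle markers was 0.313 on that array, beside 0.395 on wild-type replicate 3. The part of epithelium, muscle and blood cells in the levels of cell division genes was not tested. Among 16 cochlear markers 12 were bright and 0 were called, with differences of those 12 from -0.58 to 0.36. Of the dim ones, Slc26a5 was at 1.69 and Tecta at 0.66 (limma adjusted p = 0.0911 and 0.319 with no filter). Over all 16, 7 differences were positive and 9 negative.

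Other genes of the same pathways, outside the 30, were read in the same way. Of 51 further measured genes of DNA replication, 35 were bright, 0 were called and 3 had an unadjusted p under 0.05 in limma; 18 differences were positive and 17 negative, with a median of 0.06. Among them were Gmnn, geminin, the inhibitor of origin licensing, with means of 1339 ± 202.5 against 1885 ± 292.5 for wild-type and D257A (SD, n = 5 each; log2 difference 0.49, limma adjusted p = 0.157), and the primase subunit Prim1, with 1678 ± 135.2 and 1186 ± 306.5 (-0.53, adjusted p = 0.174). Of 59 further genes of mitosis, 32 were bright, 0 were called and 4 had an unadjusted p under 0.05; 22 differences were positive and 10 negative, with a median of 0.11, while 47.06% of all genes tested were positive. Cdca8, borealin, a partner of Birc5 and Aurkb in the chromosomal passenger complex, measured 1072.6, 1437.5, 1508.7, 1496.4 and 1322.5 in wild-type and 2542.4, 2599.4, 1929.2, 1577.7 and 2242 in D257A. Its groups did not overlap (log2 difference 0.65, adjusted p = 0.0851). Kif23, a kinesin of the central spindle like Kif20a, went the other way, from 1131 ± 222.4 to 606.5 ± 263.5 (-0.99, adjusted p = 0.121).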

How the data were processed

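Deposited values are array intensity on a linear scale, 1 per probe set, made by the authors with GCOS 1.3, per the submitters' processing notes. How background was corrected and to which target arrays were scaled was not given in the sources used here. The trimmed mean (2% at each end) was 1494 to 1496 on all arrays and the median 551.7 to 649.3. The authors' scaling was kept. Of 45101 probe sets, 64 controls were left out; 34945 had 1 gene in the platform table, 932 several and 9160 were unnamed here. Signals were taken as log2(signal + 16), so differences of dim genes are understated. Limma (version 3.58.1, R version 4.3.3) with group as its only term, a trend of variance on signal in eBayes and 8 residual degrees of freedom was fitted to the 22518 probe sets with the highest mean, and two-sided p-values were adjusted by Benjamini-Hochberg across these. A list's level on an array is the mean over its bright genes of log2 signals centred per gene. The number of arrays limits the precision; no label gave a batch to test. The fit was tested on simulated data.

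All 30 members were named. All array values were given for genes without overlap and for the highest and lowest difference in each role; of other lists, called genes and up to 2 more with the smallest p, of which the text gives a part. Members and lists were chosen with earlier results of these data known. Same-numbered arrays of the 2 groups were not treated as pairs in the main fit. The correlations of their deviations from the group means ran from -0.337 to 0.183, which does not settle whether the samples had been matched. Other settings tried were pseudocounts of 1 and 64, median-centred or quantile-normalized arrays, no filter, the brightest 30%, a fit without the trend, weights per array, a block for the replicate number, averaging the probe sets of a gene, leaving out single arrays, and leaving out wild-type replicate 3 with D257A replicate 2.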

Additional observations from a re-analysis of the deposited data

Results flagged for a closer look

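In 2 of 58 groups of 5 arrays (29 genes, 2 groups each) 1 array lay far from the other 4, where chance flags about 1 group in 20. Mki67 measured 10063.1 on wild-type replicate 2, against 4162.4 to 5714.3 on the other wild-type arrays. The dim Bub1b measured 451.8 on wild-type replicate 5, against 79.3 to 185.1.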

How the results depend on the processing

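The count of called cell division genes was 0 of 21 in the main setting and 0 in each alternative, with 14 of them present among the brightest 30% and 13 with the mean of probe sets, except for 1 called lower (Rrm2) with array weights and without D257A replicate 1; with 1 array left out it ran from 0 to 1. Their median difference stayed between -0.167 and 0.073, from -0.167 to 0.016 with 1 array left out (the latter over 22 genes, Kif11 having passed the filter, and -0.001 over the 21), and turned positive in several settings (0.073 over the 13 with the mean of probe sets, 0.052 with array weights, 0.043 without both arrays that stood apart). Centring arrays on the median moved the median over all genes from -0.022 to -0.123 and that of the members to -0.166, with 7 positive and 14 negative. The count of all called probe sets, 513, was 322 among the brightest 30%, 1217 with array weights, 188 with the replicate number as a block, in which no cell division gene was called, and 197 to 571 with 1 array left out. Genes near no difference changed sign: Mcm3 (-0.079), Mcm7 (-0.047) and Prc1 (-0.081) with arrays centred on the median, Prc1 (-0.028) with quantile normalization, Mcm4 (0.06) and Ccna2 (0.014) with array weights, Mcm4 (0.073) and Ccna2 (0.088) with the mean of probe sets, and Ccna2 (0.046) without both arrays. With 1 array left out, Mcm3 ran from -0.072 to 0.152, Prc1 from -0.069 to 0.128, Mcm5 from -0.241 to 0.058, Ccna2 from -0.186 to -0.002 and Cdc20 from -0.285 to 0.033. The cause of these changes was not tested. In fits with no filter, the 8 dim members were not called when any 1 array was left out; Kif11 also passed the filter, uncalled, in 4 of the filtered fits. Changes of 1 log2 unit were called in 31.3% of simulated cases with independent noise. A smaller difference may thus be missed with this number of arrays, and the share in the data themselves is not known.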

Other observations

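Genes that hold cells in G1 or out of the cycle were read as well. Of 20 measured inhibitors and arrest genes, 17 were bright and limma called 0 (2 with an unadjusted p under 0.05). The inhibitor gene Cdkn1c had means of 3111 ± 806.5 against 4382 ± 925.7 for wild-type and D257A (SD, n = 5 each; log2 difference 0.52, limma adjusted p = 0.279), and the pocket protein gene Rbl2 2144 ± 348.7 and 1542 ± 554.5 (-0.53, adjusted p = 0.29). A list of 8 G1 genes held cyclins, their kinases and the transcription factor genes Myc and E2f3. All were bright and limma called 0, and 3 had an unadjusted p under 0.05 (Ccnd2, Myc and E2f3). Ccnd2, cyclin D2, measured 3111.6, 2504.2, 2776.8, 3272.3 and 2547.3 in wild-type and 1823.6, 2261, 1839.5, 1371.9 and 2029.2 in D257A. Its D257A values all lay below the wild-type ones (log2 difference -0.61, adjusted p = 0.0824), as they did for 3.52% of all genes tested. Myc was at 0.52 and E2f3 at 0.45 (limma adjusted p = 0.266 and 0.293).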
